A study of Mus musculus with 2 samples.

Results

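The genes described here encode the DNA-binding subunits of the transcription factor NF-kB (Nfkb1, Nfkb2, Rel, Rela and Relb), 3 inhibitory or regulatory proteins that NF-kB itself induces (Nfkbia, Nfkbiz and Tnfaip3), and 2 components of the kinase that activates it (Ikbkb and Ikbkg). They were listed by name for their roles, with earlier results of these data known. Of these 10 genes, 9 were measured among 19938 genes, each by 1 probe set with that gene as its only symbol in the platform annotation. No probe set was assigned to Nfkb1 in this way, and Nfkb1 was not analysed here. The levels come from 2 microarrays of KSL cells, a stem and progenitor fraction of bone marrow sorted as positive for c-Kit and Sca-1 and negative for lineage markers. The first array was hybridised with RNA from Nrf2 KO cells, which lack the transcription factor that drives antioxidant genes, and the other with RNA from wild-type cells. Both groups had the C57BL/6J background and were young and healthy, aged 8 to 10 weeks. Marrow of 5 mice per genotype was pooled before the sort, so each genotype had 1 array and no difference has a replicate check or a p-value. How the Nrf2 allele was disrupted is not given in the sources used here. Nfe2l2, the targeted gene, had a log2 intensity of 9.07 in the Nrf2 KO pool and 9.16 in the wild-type pool. Its signal thus stood at 94.0% of wild type and does not check the genotype label, and where its probes lie relative to the disrupted part was not tested.

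NF-kB dimers are held in the cytoplasm of resting cells by inhibitor proteins such as IkBα, the product of Nfkbia. Signals from receptors for TNF, interleukin 1 and microbial products activate the IkB kinase, IKK, which marks IkBα for degradation and lets the dimers enter the nucleus. The dimers then induce chemokine, cytokine and survival genes, and also their own inhibitors, so that the response limits itself. In blood-forming tissue NF-kB is known for its part in the survival and inflammatory responses of stem and progenitor cells and in myeloid activation.

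Some of these genes are themselves induced by NF-kB, and their promoters were searched for its motif. RefSeq promoter windows (GRCm38.p6) were at hand for 6 of the 10 genes, and the 250 bases before each annotated start were searched on both strands for the NF-kB consensus, the kB motif, with overlapping matches counted separately. Nfkb2, Nfkbia, Rel and Tnfaip3 held a match, while Rela and Ikbkg held none in any window. Of all 27025 genes with a window, 8.23% held a match. The 130 bases before the start are shown for the 4 genes with a match because most of their matches lie there, with the matched bases in capitals:
Nfkbia, chr12:55492648-55492777, minus strand: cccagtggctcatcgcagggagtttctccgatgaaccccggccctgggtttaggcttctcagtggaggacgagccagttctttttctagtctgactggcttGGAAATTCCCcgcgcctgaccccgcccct
Tnfaip3, chr10:19015411-19015540, minus strand: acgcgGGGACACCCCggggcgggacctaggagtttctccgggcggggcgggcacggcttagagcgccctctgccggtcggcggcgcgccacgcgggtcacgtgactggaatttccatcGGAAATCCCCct
Nfkb2, chr19:46304607-46304736, plus strand: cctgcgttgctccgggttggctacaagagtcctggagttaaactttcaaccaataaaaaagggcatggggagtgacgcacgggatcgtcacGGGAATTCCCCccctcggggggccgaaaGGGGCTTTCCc
Rel, chr11:23770970-23771099, minus strand: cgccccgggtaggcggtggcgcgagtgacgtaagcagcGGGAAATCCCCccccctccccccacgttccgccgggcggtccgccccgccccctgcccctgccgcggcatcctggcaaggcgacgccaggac

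In Nfkbia the match GGAAATTCCC began at position −29, counted back from −1 at the base before the start. In Tnfaip3 the matches GGGACACCCC and GGAAATCCCC began at positions −125 and −12, and the window of a second annotated start held none. In Nfkb2, GGGAATTCCC and GGAATTCCCC overlap by all but 1 base, as do GGGAAATCCC and GGAAATCCCC in Rel. Nfkb2 has 2 further annotated starts, whose windows held GGAATGTCCC and GGGACTTTCC. A match describes the letters of the window and not a site in use.

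The NF-kB genes were mostly at slightly lower levels in the Nrf2 KO pool. The feedback inhibitor Tnfaip3 was lowest, followed by the IKK component Ikbkg and the feedback inhibitor Nfkbia, and the subunit Rela was close to level. Of the 9 measured genes, 7 were below their wild-type level, against 46.9% of all genes, and 2 were above it, against 50.7% of all genes. Their median log2 difference, knockout minus wild type, was −0.24, against a median of 0.01 over all genes. Genes whose mean level reached the median over genes, here called past the level filter, leaned slightly lower. Of these 9970 genes, 5272 were lower and 4635 higher, with a median of −0.02. Of the 8 NF-kB genes past the filter, 6 were lower and 2 higher, with a median of −0.31. Only Tnfaip3 of the 9 measured genes was at least 1.5-fold lower, against 3.15% of all genes and 429 of the 9970 past the level filter. None was at least 1.5-fold higher, against 1.74% of all genes and 233 of those 9970. At the larger size of 2-fold there was no NF-kB gene in either direction, against 0.602% of all genes lower and 0.311% higher. Tnfaip3, at 1.52-fold, lay just inside the 1.5-fold size, and after loess on mean level it lay just outside, at −0.58. Ikbkg, at 1.41-fold, was the nearest gene outside it. The only error available was that between probe sets of one gene. From 515 genes past the level filter with 2 probe sets, the SD of a single log2 difference was 0.31. Variation among mice, sorting and amplification is not part of it. Tnfaip3, Ikbkg, Nfkbia and Nfkb2 differed by more than this SD, and the other 5 measured genes by less. The differences of all genes past the level filter had an SD of 0.33, about as wide as this error. A robust estimate of the same probe-set error was 0.17, which Nfkbiz and Relb exceeded too, making 6 genes. The share of all genes past either estimate was not counted. Relb was below the level filter, so neither estimate describes genes of its level. Markers of mature neutrophils were lower in the same pool by a median of −1.22, and their part in these differences was not tested.

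**Figure D1:**
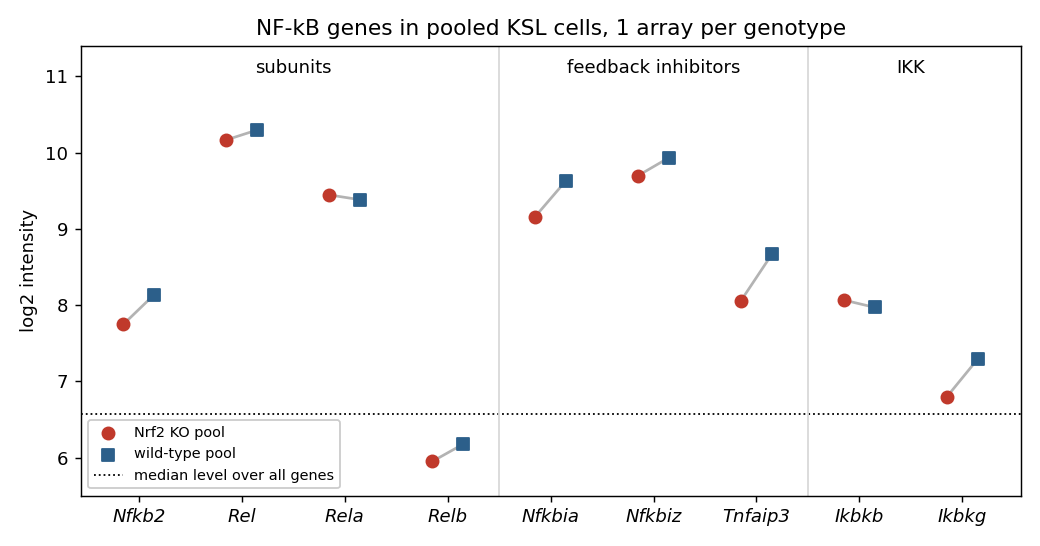
Log2 intensity of the 9 measured NF-kB genes on the Nrf2 KO array (circles) and the wild-type array (squares), 1 value each, with a dotted line at the median level over all genes, 6.57. The knockout value is the lower one for 7 genes and the higher one for Rela and Ikbkb; levels of different genes are not comparable, since each comes from its own probes.

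The feedback inhibitors were lower in the knockout pool for all 3 genes, with a median log2 difference of −0.47. Tnfaip3 encodes a ubiquitin-editing enzyme that shuts off signalling upstream of IKK. Its log2 intensity was 8.06 in the Nrf2 KO pool, against 8.67 in the wild-type pool. The difference was −0.61, so that the knockout signal was 65.6% of the wild-type signal. Among the 500 genes of most similar mean level, whose differences had an SD of 0.35, 3.4% were as low or lower. Nfkbia, the gene of the classical cytoplasmic inhibitor, stood at 9.16 in the Nrf2 KO pool and 9.63 in the wild-type pool. This difference of −0.47 left it at 72.1% of the wild-type level, and 3.8% of the 500 genes of similar level were as low or lower. Nfkbiz encodes IkBζ, a nuclear inhibitor family member that acts as a cofactor at a subset of inflammatory genes. It had 9.70 in the Nrf2 KO pool and 9.93 in the wild-type pool. The difference of −0.24 was smaller, and 15.2% of genes of similar level were as low or lower.

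The subunits spread around a smaller difference, with a median of −0.18 over the 4 measured. Nfkb2, whose precursor both restrains and forms the alternative-pathway dimers, stood at 7.75 in the Nrf2 KO pool against 8.14 in the wild-type pool, and so differed by −0.39. Of the 500 genes of similar level, 14.0% were as low or lower. Relb, the partner of processed Nfkb2 in that pathway, had 5.95 in the Nrf2 KO pool and 6.17 in the wild-type pool, and differed by −0.23. Both values lay below the median level over genes, 6.57. Genes of similar level to Relb had differences with an SD of 0.31.

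Rel, the subunit known for its role in lymphocytes, was close to level, at 10.17 in the Nrf2 KO pool and 10.30 in the wild-type pool, which differ by −0.13. Rela, the main activating subunit of the classical pathway, stood at 9.45 in the Nrf2 KO pool and 9.38 in the wild-type pool, which differ by 0.06. The 2 subunits with activation domains of the classical pathway, Rel and Rela, thus had differences inside the SD of genes of similar level, 0.21 and 0.27. This was not particular to them, since Relb and Ikbkb also lay inside theirs, 0.31 and 0.36. With the difference of Rela subtracted on the log2 scale, Nfkb2 was at −0.45, Nfkbia at −0.54 and Tnfaip3 at −0.67. Rela was above its wild-type level, so the subtraction lowers each value. Each result carries the error of both genes, with no replicate to judge it against.

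The IKK components differed from each other. Ikbkg encodes NEMO, the regulatory subunit that the classical pathway requires, and stood at 6.80 in the Nrf2 KO pool against 7.29 in the wild-type pool. It differed by −0.50, standing at 70.9% of wild type, and 9.4% of genes of similar level were as low or lower. Ikbkb, the catalytic subunit that phosphorylates IkBα, was at 8.07 in the Nrf2 KO pool and 7.97 in the wild-type pool, which differ by 0.10. The difference of Ikbkg minus that of Ikbkb was −0.59, with no replicate to judge it against. Chuk, the gene of the other catalytic subunit, was not analysed here.

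**Figure D2:**
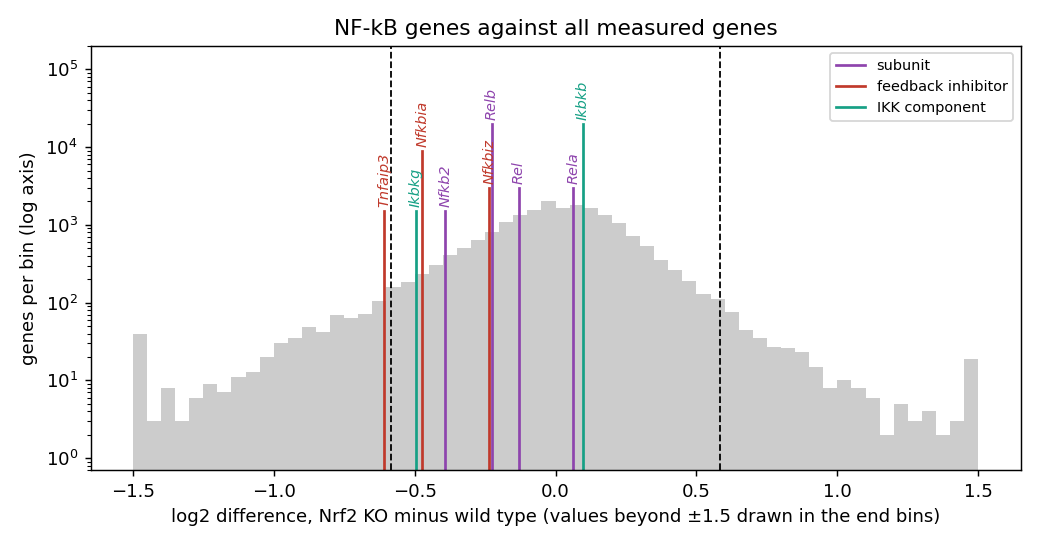
Histogram of the log2 difference, Nrf2 KO minus wild type, over all 19938 genes (log count axis, bins of equal width), with a vertical line at each measured NF-kB gene; line height carries no value and only separates the names. Dashed lines mark 1.5-fold in either direction: Tnfaip3 at −0.61 lies just beyond the lower one, and the other 8 genes lie between −0.50 and 0.10.

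Set beside the promoter sequences above, the genes with a kB match differed by −0.61 (Tnfaip3), −0.47 (Nfkbia), −0.39 (Nfkb2) and −0.13 (Rel). Of the genes whose windows held none, Rela differed by 0.06 but Ikbkg by −0.50, so the genes with and without a match overlapped. In a list of 31 genes that NF-kB is known to induce, 28 were measured and 19 of these had a promoter window. The 9 with a match had a median difference of −0.54. Of these, 8 were lower in the Nrf2 KO pool, against 46.9% of all genes. The 10 without a match had a median of −0.26, and 8 of them were lower too. Whether the medians differ by more than the spread of single genes was not tested.

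The wider list of induced genes was lower on balance. It was chosen with earlier results of these data known, so the counts describe the list and do not test it. Of the 28 measured, 21 were lower and 7 higher in the Nrf2 KO pool, against 46.9% and 50.7% of all genes. Their median was −0.31, and 8 were at least 1.5-fold lower, against 3.15% of all genes. None was at least 1.5-fold higher, against 1.74% of all genes. Past the level filter, set at the median level over genes, 6 of 19 induced genes were at least 1.5-fold lower, against 429 of 9970 genes. These were the chemokines Cxcl10, Cxcl2, Ccl5 and Ccl3, the stress gene Gadd45b and the mitochondrial superoxide dismutase Sod2. Ccl3, which attracts monocytes, stood at 10.41 in the Nrf2 KO pool against 11.00 in the wild-type pool, and so differed by −0.59. Cxcl2, a neutrophil attractant, had 8.02 in the Nrf2 KO pool and 9.47 in the wild-type pool. Cxcl10, an attractant of T cells, had 6.07 in the Nrf2 KO pool, below the level filter, and 8.47 in the wild-type pool. Gadd45b differed by −1.02, Ccl5 by −0.70 and Sod2 by −0.61.

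The other inhibitors of the pathway showed no common direction. Of 17 listed and measured, 10 were lower and 7 higher in the Nrf2 KO pool, against 46.9% and 50.7% of all genes. Their median was −0.06 and 0 reached 1.5-fold, against 3.15% of all genes lower and 1.74% higher. The relatives of Nfkbia differed by −0.25 for Nfkbib, −0.15 for Nfkbie and −0.17 for Bcl3, a nuclear member that binds dimers of the Nfkb1 and Nfkb2 products. The largest absolute differences were those of Nfkbid, another nuclear inhibitor, at −0.43, Tnip3, which binds the Tnfaip3 protein, at −0.38, and Rnf11, which acts with it, at −0.37. With 1 difference per gene and a probe-set SD of 0.31, the order of these genes was not tested.

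Adaptors and kinases upstream of IKK were close to level as a group. Of 30 listed, 24 were measured, 15 lower and 9 higher in the Nrf2 KO pool, with a median of −0.04. Of all genes, 46.9% were lower and 50.7% higher. Only 1 of the 24 was at least 1.5-fold lower, against 3.15% of all genes. It was Sharpin, a component of the linear ubiquitin ligase complex that recruits NEMO, at 8.46 in the Nrf2 KO pool and 9.11 in the wild-type pool. The adaptor Traf2 differed by −0.41 and the IKK-activating kinase Map3k7 by −0.40. Receptors and ligands had a median of −0.03 over 16 of 17 genes, with 10 lower and 6 higher, and 4 at least 1.5-fold lower, against the same 3.15% of all genes. Past the level filter these 4 included the cytokine Il1b at −1.88, whose knockout value of 6.14 was itself below the filter, lymphotoxin beta (Ltb), a ligand of the alternative pathway, at −1.08 and the receptor chain Il18r1 at −0.61.

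**Figure D3:**
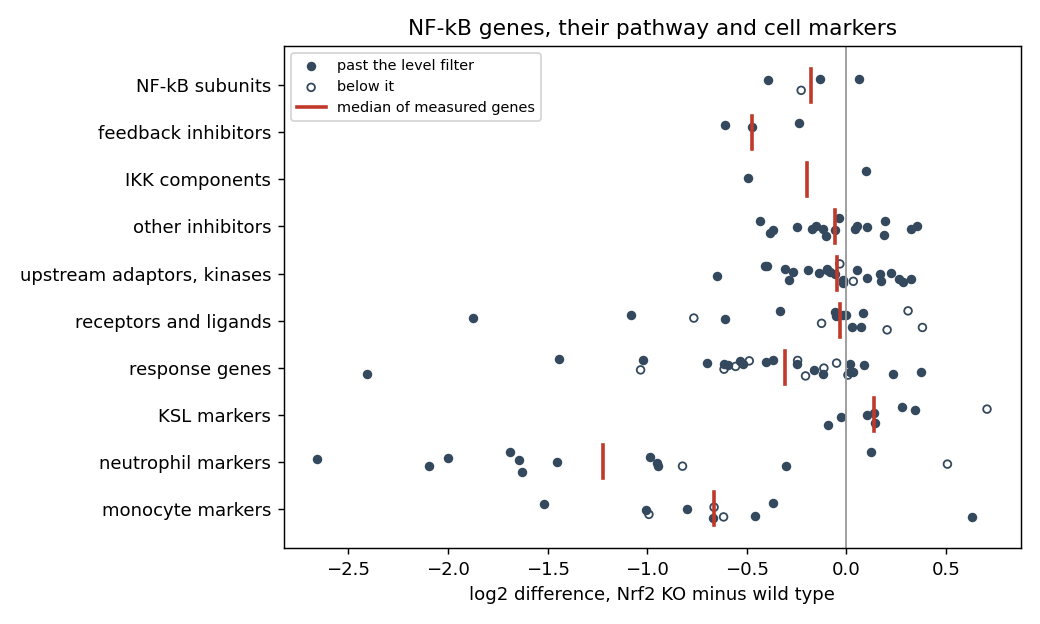
Log2 difference, Nrf2 KO minus wild type, of each measured gene of the NF-kB lists and of marker lists, 1 point per gene, filled where the mean level reached 6.57 and open below it, with a red bar at the median of each list. The feedback inhibitors lie at a median of −0.47 and the induced genes at −0.31, while neutrophil markers lie at −1.22 and KSL markers at 0.14.

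Markers of mature myeloid cells, which also express NF-kB genes, were also lower in the Nrf2 KO pool. Of 14 neutrophil markers, 12 were lower in the Nrf2 KO pool, against 46.9% of all genes. Their median was −1.22, and the lowest were Retnlg at −2.66, Lcn2 at −2.10 and Mmp8 at −2.00. Retnlg and Mmp8 were below the level filter in the Nrf2 KO pool, at 5.36 and 5.74, and above it in the wild-type pool, at 8.01 and 7.75. The summed linear intensity of all 14 neutrophil markers was 7433 in the Nrf2 KO pool and 16277 in the wild-type pool. S100a9, S100a8 and Ngp, the markers of highest signal, make up most of both sums. The 2 markers higher in the Nrf2 KO pool were Csf3r and Ly6g. Csf3r, past the level filter, had 9.06 in the Nrf2 KO pool and 8.94 in the wild-type pool. The neutrophil surface marker Ly6g was below the level filter at 5.41 in the Nrf2 KO pool and 4.90 in the wild-type pool. Of 10 measured monocyte and macrophage markers, 9 were lower, against 46.9% of all genes, with a median of −0.67. Their sums, likewise weighted toward the markers of highest signal, were 1626 in the Nrf2 KO pool and 2101 in the wild-type pool. Ccl6 was the lowest of these markers at −1.52, with 6.51 in the Nrf2 KO pool, below the filter, and 8.02 in the wild-type pool. Next were Ms4a6c, 2.01-fold lower, and Ccr2, below the filter, at −0.99. The exception was Cd68, named here after its values were seen, which had 9.31 in the Nrf2 KO pool and 8.68 in the wild-type pool. No marker was listed at 0. In pooled bulk RNA fewer cells of a type and less RNA per cell cannot be told apart.

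Of 8 KSL markers measured, 7 passed the level filter. Of the 8, 6 were higher in the Nrf2 KO pool, against 50.7% of all genes, with a median of 0.14. Kit stood at 11.21 in the Nrf2 KO pool and 10.93 in the wild-type pool, Meis1 differed by 0.35 and Slamf1, below the filter, by 0.71; Ly6a, which encodes Sca-1, was not analysed here. Medians were −0.10 over 6 B cell markers, −0.13 over 5 T cell markers and 0.02 over 3 erythroid markers. In these lists Cd79b differed by −0.79, Cd79a by −0.55, Vpreb1 by 0.18, Cd3d by −0.62, Lat by −0.16, Cd8a by −0.13, Klf1 by −0.25, Alas2 by 0.04 and Slc4a1 by 0.02. Of these, Cd79b, Vpreb1 and Lat passed the level filter and the other 6 did not. The arrays had median log2 intensities of 6.41 in the Nrf2 KO pool and 6.41 in the wild-type pool over 28853 probe sets, and their number limits the precision.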

How the data were processed

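KSL cells pooled from 5 mice per genotype were profiled on Affymetrix Mouse Gene ST arrays after amplification with NuGEN Ovation kits, per the labels' protocols. Each probe set has 1 deposited log2 intensity per array, the base being judged from the values, which reach 13.79. Partek is the tool listed in the submitters' processing notes; how background, normalization and probe summary were handled is not stated. Sorted and set side by side, the array values were within 0.0866 of each other, so a shift of all genes could not be seen. Of 28853 probe sets, 21789 had 1 gene symbol, and probe sets of a gene were averaged to 19938 genes. Differences are log2 knockout minus wild type. The level filter was the median of gene means, 6.57. With 1 array per group no test was run; genes were counted at 1.5-fold. Members and lists were chosen with earlier results of these data known. Named besides the members and Nfe2l2 were Bcl3, Nfkbib and Nfkbie; pathway genes past the filter at 1.5-fold, or the 3 largest per list where fewer; and the 3 largest per marker list. Csf3r, Ly6g and Cd68 were named as well, as exceptions in direction to their marker lists. The counting was tested on simulated data. Alternatives were median centring, quantile normalization, loess, the highest probe set, level filters, a 2-fold size, the mean and leaving out the largest member. Python 3.11.15, numpy 2.4.6, pandas 2.3.3 and statsmodels 0.14.6 were used.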

Additional observations from a re-analysis of the deposited data

How the results depend on the processing

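The median log2 difference of the measured NF-kB genes, −0.24, lay between −0.22 with median centring and −0.31 over the 8 genes past the level filter under every alternative run, the mean (−0.27) and the median without Tnfaip3 (−0.23) included. The count of genes at least 1.5-fold lower was 0 in place of 1 after loess on mean level, where Tnfaip3 differed by −0.58, and 0 at a 2-fold size; it was 1 under the other alternatives. The count of genes at least 1.5-fold higher was 0 under all of them. Over median centring, quantile normalization, loess and the highest probe set, all 36 values of single genes stayed within the probe-set SD of 0.31 of their reported value, and none changed sign. Sorted array values were already within 0.0866 of each other, so rescaling had little room to move a gene. That count is therefore no check on the single differences. The members have 1 probe set each, so the choice among probe sets could not change their values. No paired analysis was possible because each genotype has 1 array, and for the same reason no replicate could be left out. Signal over background was not measured, and Relb is the only measured member below the level filter.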
